A study of Mus musculus with 2 samples.

Results

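Regulatory T (Treg) cells that had met inflammation carried accessible promoters at nearly all of 32 genes that make, sense, move or store cholesterol and fatty acids. The genes were listed by name and function, with earlier results of these data known. They comprised 7 enzymes of the mevalonate pathway, 11 enzymes that turn farnesyl diphosphate into cholesterol, 5 genes of the SREBP control system, 5 genes of fatty acid synthesis and 4 genes of sterol transport and storage. They are 32 of 21853 protein-coding genes with a coding transcript start in GENCODE M21, and 78 of the 29415 accessible regions of the list that passed the authors' reproducibility threshold (IDR-thresholded) were placed at them. A region, made by merging overlapping peaks, counts as a promoter region where it comes within 1000 bp of a coding transcript start of the gene. A distal region lay elsewhere and had its summit nearest to a start of the gene, within 100 kb. Distances from start to summit are negative upstream, and positions are 1-based on GRCm38 (mm10).

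ATAC-seq, which reads open chromatin through insertions of the Tn5 transposase, was performed on inflammation-experienced Treg cells of a male mouse aged 6 months of the strain Foxp3CreERT2 x Rosa26YFP. Foxp3CreERT2 is a tamoxifen-inducible Cre driven from the Foxp3 locus, which is active in Treg cells, and Rosa26YFP is a fluorescent Cre reporter; both samples have this strain. The labels trace the cells to bone marrow haematopoietic cells and state neither the kind of inflammation nor any drug given. Both samples are technical replicates of the same donor, there is no control group, and the lists were taken to pool them. Each value below is therefore 1 pooled value with no replicate error, no test was possible, and the depth is unknown. Fold enrichment over background and −log10 p are the authors' values for each peak. Each of these is, for a region, the highest value among its peaks. Accessibility is not a measure of expression.

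The labelled cell type was set against marker genes. Regions were found at all 5 Treg and all 5 T cell loci examined, with a promoter region at 4 of 5 in each list; Tnfrsf18 and Cd4 had none. A promoter region was present at 1 of 4 B cell genes (Pax5), 0 of 5 myeloid genes, 0 of 4 liver genes and 1 of 4 adipocyte genes (Plin1). Any region at all was found at 1 of 4 B cell, 0 of 5 myeloid, 1 of 4 liver and 3 of 4 adipocyte loci. Over all protein-coding genes, 49.7% had a promoter region and 59.1% had at least 1 region. With lists this short, these counts describe the marker loci and do not establish the cell type.

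Cholesterol is built from acetyl-CoA through mevalonate, isoprenoid diphosphates, squalene and lanosterol. When sterols in the endoplasmic reticulum run low, Scap escorts the membrane-bound SREBP factors to the Golgi, where they are cut and released to activate these genes, while Insig proteins hold Scap back when sterols are plentiful. SREBP factors bind sterol regulatory elements (SRE), commonly beside CCAAT boxes bound by NF-Y and GC boxes bound by Sp1. Oxysterols act through the LXR receptors, which drive the efflux pumps Abca1 and Abcg1 as well as Srebf1. T cells that proliferate draw on both pathways for membranes and protein prenylation.

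The stretches that carry the sequence results are shown as the 300 bases around the highest summit of a region, read 5′ to 3′ on the strand of the gene from the GRCm38.p6 genome. Capitals mark matches to TCACNCCAC (the SRE letters searched) or CCAAT, either of which can stand in its reverse complement. Hmgcs1 is shown as a member with an SRE match at the summit of its highest promoter region. Mvk and Fdft1 are among the members with the most CCAAT matches at that place, Fdps has the highest promoter fold enrichment, and the regions of Srebf1 and Elovl6 are distal ones with an SRE match of the form TCACCCCAC. All but Hmgcs1 were chosen after their values were seen.
Hmgcs1 promoter (chr13:119690105-119690404, plus strand): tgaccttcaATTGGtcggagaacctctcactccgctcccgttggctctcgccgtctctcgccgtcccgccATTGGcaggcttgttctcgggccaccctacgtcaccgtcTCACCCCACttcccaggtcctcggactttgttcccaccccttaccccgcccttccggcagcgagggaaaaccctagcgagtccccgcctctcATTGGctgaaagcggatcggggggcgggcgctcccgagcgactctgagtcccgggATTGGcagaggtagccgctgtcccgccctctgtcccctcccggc
Mvk promoter (chr5:114443993-114444292, plus strand): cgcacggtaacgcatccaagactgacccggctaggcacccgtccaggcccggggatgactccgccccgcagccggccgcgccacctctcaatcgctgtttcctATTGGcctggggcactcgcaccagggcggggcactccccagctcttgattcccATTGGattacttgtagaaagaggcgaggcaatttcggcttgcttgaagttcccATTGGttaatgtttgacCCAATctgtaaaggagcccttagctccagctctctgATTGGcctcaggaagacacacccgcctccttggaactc
Fdft1 promoter (chr14:63177878-63178177, minus strand): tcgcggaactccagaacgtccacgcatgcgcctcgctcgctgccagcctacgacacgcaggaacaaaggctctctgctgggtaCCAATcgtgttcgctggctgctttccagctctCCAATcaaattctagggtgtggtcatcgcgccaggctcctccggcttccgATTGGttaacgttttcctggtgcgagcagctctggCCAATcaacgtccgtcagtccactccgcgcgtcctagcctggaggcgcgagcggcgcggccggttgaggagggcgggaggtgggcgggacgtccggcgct
Fdps promoter (chr3:89101886-89102185, minus strand): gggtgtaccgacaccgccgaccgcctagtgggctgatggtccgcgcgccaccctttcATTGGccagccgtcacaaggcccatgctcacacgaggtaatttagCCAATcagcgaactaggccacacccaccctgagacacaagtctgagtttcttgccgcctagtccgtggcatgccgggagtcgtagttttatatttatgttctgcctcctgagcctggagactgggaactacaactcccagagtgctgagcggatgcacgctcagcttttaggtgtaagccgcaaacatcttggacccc
Srebf1 upstream region (chr11:60222747-60223046, minus strand): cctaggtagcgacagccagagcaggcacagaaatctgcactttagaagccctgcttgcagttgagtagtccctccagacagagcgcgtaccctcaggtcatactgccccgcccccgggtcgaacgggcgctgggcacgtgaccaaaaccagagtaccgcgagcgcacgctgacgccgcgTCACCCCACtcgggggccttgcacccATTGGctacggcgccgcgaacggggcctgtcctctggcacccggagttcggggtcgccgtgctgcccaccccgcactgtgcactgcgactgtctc
Elovl6 intronic region (chr3:129536248-129536547, plus strand): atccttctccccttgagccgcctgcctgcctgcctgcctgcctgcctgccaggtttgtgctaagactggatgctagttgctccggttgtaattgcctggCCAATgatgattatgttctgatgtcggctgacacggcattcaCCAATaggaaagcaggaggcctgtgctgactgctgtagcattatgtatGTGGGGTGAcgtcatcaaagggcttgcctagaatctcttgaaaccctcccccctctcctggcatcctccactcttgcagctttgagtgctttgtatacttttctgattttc

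Of the 32 genes, 31 had a promoter region (96.9%, 95% exact binomial interval 83.8 to 99.9%, counting error only), against 49.7% of all protein-coding genes. Among the 25 members with a CpG-rich start (observed over expected CpG of at least 0.6 in the 500 bp on either side), 25 had a promoter region, against 78.7% of all genes of that kind. The member without one, Scd1, had no CpG-rich start. The highest promoter region of a member had a median fold enrichment of 19.9 (interquartile range 16.7 to 23.9), against 16.4 (12.4 to 20.5) over the 10861 genes with a promoter region, and 24 of 31 members lay above that median of all genes. The median −log10 p was 329 for the members and 204 for all genes, whereas the median width was 890 bp for the members and 948 bp for all genes. The summit lay within 300 bp of a coding start in 27 of 31 members (87.1%), against 86.3% of all genes with a promoter region. The IDR (irreproducible discovery rate) procedure ranks peaks of 2 sets of reads against each other. The −log10 p of these summits in the 2 sets differed by a median ratio of 1.14 and at most 1.64 (Pmvk, with 31.5 and 51.7), against a median ratio of 1.16 over all genes with a promoter region. The thresholded list was selected by that procedure, so these ratios are not an independent measure of reproducibility.

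**Figure D1:**
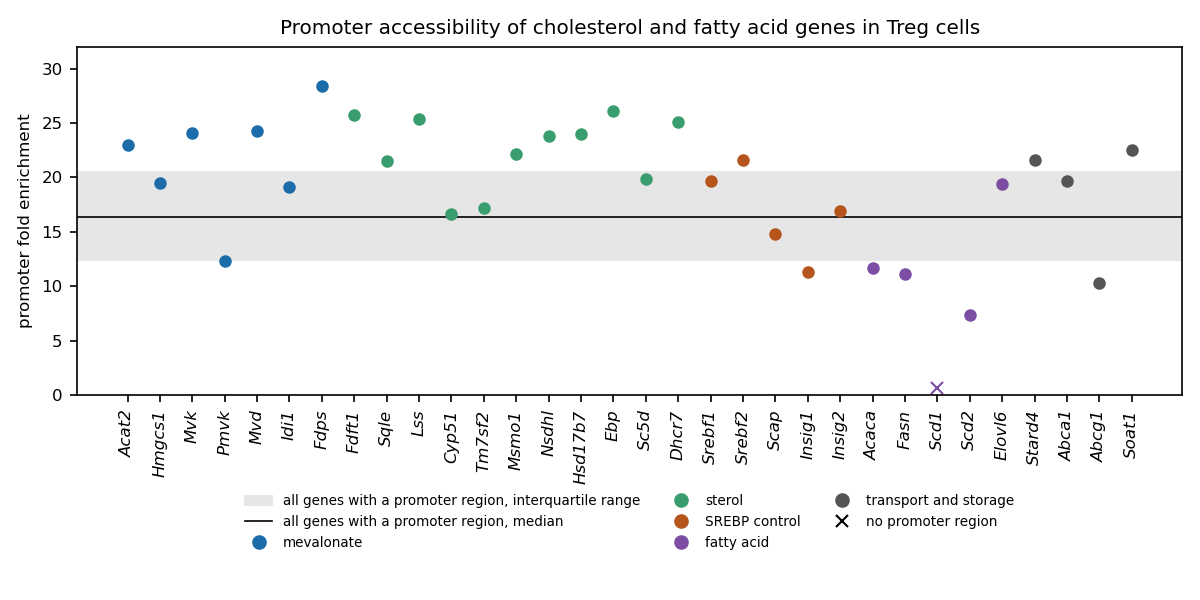
Fold enrichment over background (linear axis) of the highest promoter region of each of the 32 members, coloured by role, with the median (line) and interquartile range (band) of all 10861 genes with a promoter region; the cross marks Scd1, which has no promoter region. Of the 18 mevalonate and sterol enzymes 17 lie above the line at 16.4, and Pmvk, Insig1, Acaca, Fasn, Scd2 and Abcg1 lie below the band.

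The mevalonate enzymes were open at all 7 promoters, with a median fold enrichment of 23.0. Fdps, which makes farnesyl diphosphate, had the highest promoter of all members at 28.4 (chr3:89101474-89102348), above 98.8% of genes with a promoter region. Mvd, the decarboxylase that yields isopentenyl diphosphate, had 24.3 and Mvk, mevalonate kinase, had 24.1. Acat2, the cytosolic thiolase that begins the route, had 23.0. Hmgcs1, HMG-CoA synthase, had 19.5 in a region of 1273 bp with 4 summits, and Idi1, isopentenyl diphosphate isomerase, had 19.1. Pmvk, phosphomevalonate kinase, was the low one, with 12.3 and a −log10 p of 80.6, while the others had a −log10 p of 346 to 641. Its region (chr3:89458558-89459429) covers 2 of the 3 downstream starts of the gene, and the start at its 5′ end, 4577 bp upstream of the first of these, had no region in the thresholded list or in the longer pseudoreplicated and IDR-ranked lists. Across the 7 genes there were 9 regions, of which 2 were distal.

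The 11 sterol enzymes were likewise open at every promoter, all of them above the median of all genes, with a median fold enrichment of 23.8 (range 16.6 to 26.1). Ebp, a sterol isomerase, had 26.1, with its highest summit 462 bp downstream of a start. Fdft1, squalene synthase, had 25.7, and Lss, lanosterol synthase, had 25.4. Dhcr7, a reductase that completes cholesterol synthesis, had 2 promoter regions, with 25.1 at its 5′ start and 20.2 at a cluster of starts of which the first lies 6481 bp into the gene. Hsd17b7, a ketosteroid reductase, had 24.0 with a −log10 p of 689, the greatest of all members (chr1:169968896-169969727). Nsdhl, a sterol dehydrogenase on chromosome X, had 23.8, and Msmo1, a methylsterol oxidase, had 22.2. Sqle, squalene epoxidase and a control point of the pathway, had 21.5 at its promoter and 24.0 at a distal region whose summit lies at −51472 bp (chr15:59263257-59264044). Sc5d, a sterol desaturase, had 19.9. The lowest were Tm7sf2, a sterol reductase, with 17.2 and Cyp51, the lanosterol demethylase, with 16.6. These genes had few other regions: 4 distal ones at 3 of the 11 loci, and 1.64 regions per locus on average. For the 18 enzymes from Acat2 to Dhcr7 the mean was 1.50 regions, of which 0.333 were distal, against 1.32 and 0.740 over all protein-coding genes and 2.31 and 1.15 over the genes with a promoter region.

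The SREBP control genes were open at all 5 promoters, with a median fold enrichment of 16.9. Srebf2, whose product chiefly drives cholesterol genes, had 21.6 at its promoter and 3 distal regions with 14.4, 9.35 and 8.45, the last pair in its own intron 18328 and 18916 bp downstream of a start. Srebf1, whose product leans towards fatty acid genes, was open at 2 separate coding starts. Its higher promoter region (chr11:60210202-60210738) had 19.7 and covers the start at 60210465, close to the RefSeq start at 60210471 of isoform c. The region over the start at 60220604, close to the RefSeq start at 60220627 of isoforms a and b, had 10.8. A further region, placed as distal because GENCODE has no coding start within 1000 bp, had 10.7 and lies upstream of position 60222581, from which RefSeq annotates isoform d (chr11:60222759-60223347). That region carries the SRE match shown above, 34 bp from its summit. Scap had 14.8, Insig2 16.9 and Insig1 11.3. The regions of both Insig genes were wide, with 1553 bp and 4 summits at Insig1 and 1465 bp and 6 summits at Insig2. At Insig2 the region covers the downstream cluster of 8 starts, and the 2 starts at the 5′ end had no region in any of the 3 lists.

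Fatty acid synthesis genes had the lowest promoters, with a median fold enrichment of 11.4 at the 4 of 5 that had a promoter region; 1 of the 4 lay above the median of all genes. Acaca, the acetyl-CoA carboxylase that commits carbon to fatty acids, had 11.7 at its 5′ start, in a region shared with the neighbouring gene Tada2a, and 9.76 at 2 starts 50159 and 50186 bp into the gene. Fasn, fatty acid synthase, had 11.1 in a region of 1377 bp with 5 summits. Scd2, a stearoyl-CoA desaturase, had 7.39 and 6.68 in 2 promoter regions, the lower one over the start. The 4 promoter regions of Acaca and Scd2 had a −log10 p of 47.6 to 63.0. Scd1, a desaturase that is prominent in liver and fat, had no region at either of its 2 starts in the thresholded, pseudoreplicated or ranked list. It was assigned 2 distal regions, with 23.3 at 19130 bp and 11.9 at 34549 bp downstream of a start, both beyond its 3′ end (chr19:44388090-44389157 and chr19:44373035-44373283). In the pseudoreplicated list 31 of the 32 members had a promoter region, against 55.3% of all genes.

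Elovl6, the elongase that extends palmitate, had its promoter regions at an internal start only. At its 4 clustered 5′ starts the thresholded list had no region, while the pseudoreplicated list had low ones with a fold enrichment of 2.09 and, beside the most downstream of these starts, 2.98. The region with 19.4 lies 995 bp downstream of a start located 20025 bp into the gene, and another with 5.86 lies 218 bp downstream of it. An intronic region 3671 bp downstream of a start had 18.9 with a −log10 p of 519 in 414 bp (chr3:129536180-129536593). It holds an SRE match 43 bp from its summit.

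Sterol transport and storage genes had promoters with a median fold enrichment of 20.6. Soat1, which esterifies cholesterol for storage, had 22.5, and Stard4, a soluble sterol carrier, had 21.6. Abca1, an efflux pump that loads apolipoproteins, had 19.7 at its promoter. Abcg1, an efflux pump that loads lipoprotein particles, had 7.06 over its start and 10.3 at 1162 bp downstream of one.

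Distal regions were unevenly spread over the members. A distal region was present at 14 of 32 members (43.8%), against 31.6% of all genes and 44.7% of the genes with a promoter region. Of the 38 distal regions, 7 belonged to Elovl6, 6 each to Scd2 and Abcg1, and 3 each to Abca1 and Srebf2, while the fatty acid genes Acaca and Fasn had 0. In all, Elovl6 had 9 regions, Scd2 and Abcg1 had 8 each and Abca1 had 5; 1.40% of all genes had 9 or more, 1.96% had 8 or more and 5.86% had 5 or more. At Abcg1 the highest regions were an intronic one with 24.2, 9521 bp downstream of a start (chr17:31067022-31067486), and an upstream one with 23.2 at −17891 bp, both above its promoter. At Abca1 the 3 distal regions lay upstream, with 23.0 at −36280 bp, 16.8 at −58309 bp and 23.5 at −68016 bp (chr4:53227533-53228323). Upstream of Scd2 the regions at −26535 and −9387 bp had 15.3 and 11.4, and 3 between them had 3.81 to 5.31. The fold enrichment of a distal region exceeded that of the promoter at 4 members, which were Sqle, Scd2, Abca1 and Abcg1. How many of all genes have a distal region higher than their promoter was not counted. Over the 38 distal regions the median fold enrichment was 11.7 and the median −log10 p 70.6, against 12 and 68.9 for the distal regions of all genes, and 52.6% lay in introns, against 52.0%.

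**Figure D2:**
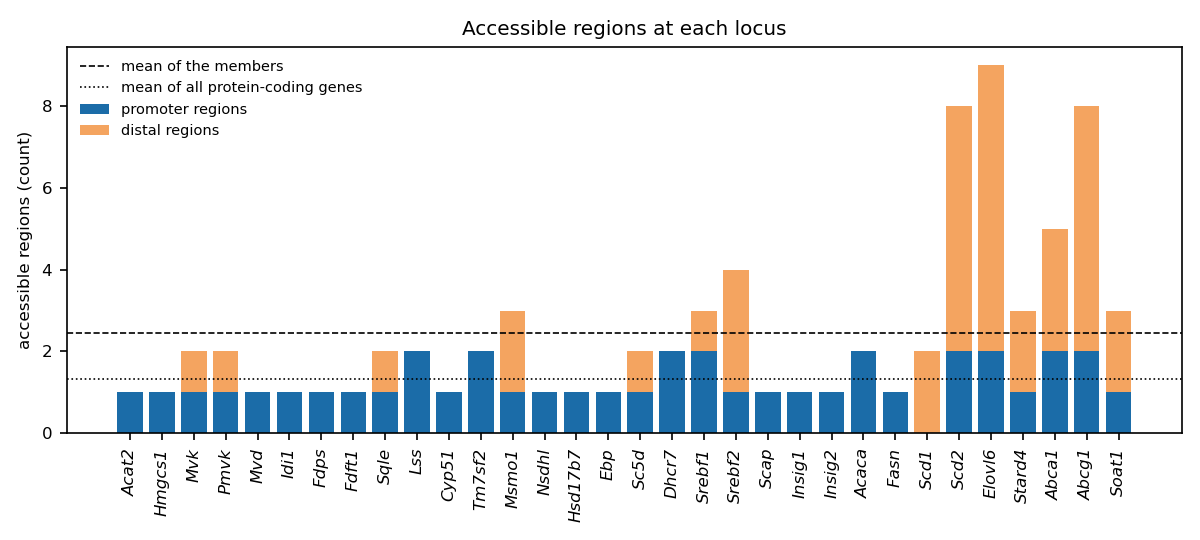
Number of accessible regions at each member's locus, split into promoter (blue) and distal (orange) regions, with the mean of the 32 members (2.44, dashed) and of all protein-coding genes (1.32, dotted). Elovl6 with 9 regions and Scd2 and Abcg1 with 8 stand highest, and 14 members have 1 region in all.

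**Figure D3:**
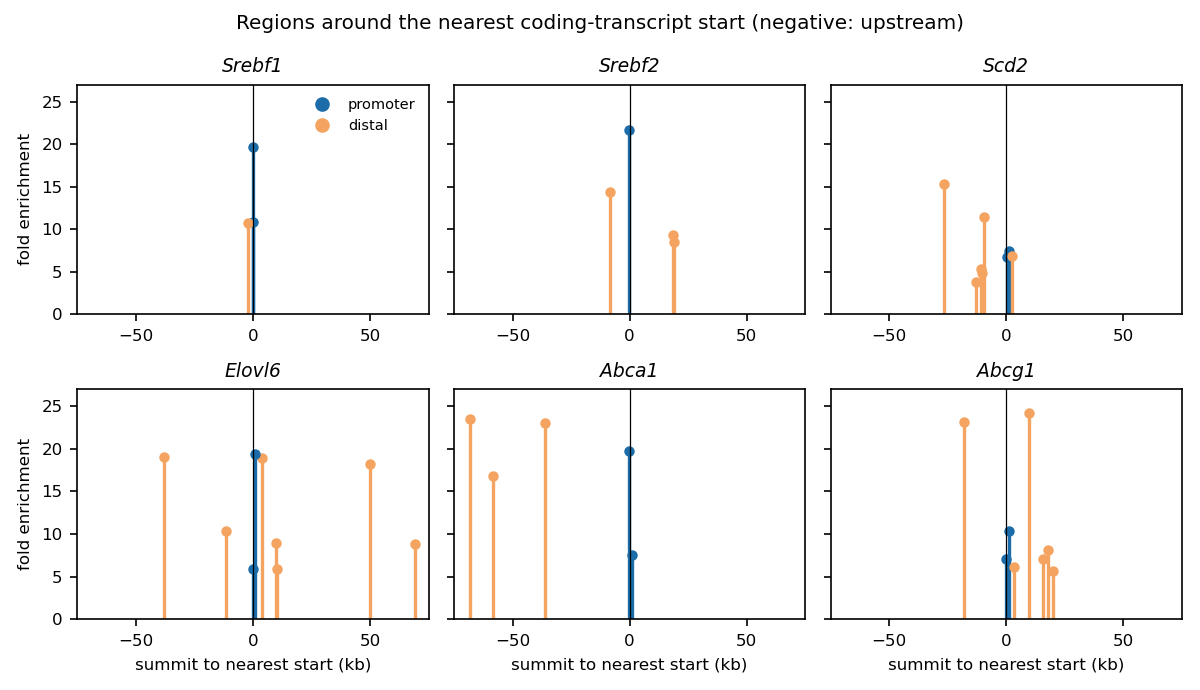
Fold enrichment of each region (vertical axis) at 6 loci against the distance of its summit from the nearest coding transcript start of the gene in kb (horizontal axis, negative upstream); blue marks promoter regions and orange distal ones. At Abca1 and Abcg1 distal regions reach 23.5 and 24.2, above the promoter regions at 19.7 and 10.3.

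Transcript starts of the members differed in accessibility. Of their 109 annotated coding starts, 88 had a region within 1000 bp (80.7%) and 81 lay inside one (74.3%), against 46.6% and 41.3% of the coding starts of all genes. Within genes that had a promoter region, the shares were 82.2% and 75.7% for members, against 79.6% and 70.7% for all genes. The other 21 member starts, in 13 genes, were without a region in the thresholded list, and 17 of these were without one in the pseudoreplicated list too; the remaining 4 were the 5′ starts of Elovl6. Internal starts without a region included 3 of Acaca, 1 of Srebf2, 1 of Scap and 1 of Abcg1.

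The promoter sequences were searched for motifs in the 300 bases around the summit, on both strands, in the 31 member regions and in the 9677 regions that served as highest promoter region of any gene. CCAAT, the NF-Y letters, was found in 24 of the 31 (77.4%), against 40.0% of all promoter regions. It was present at 16 of the 18 mevalonate and sterol enzymes (88.9%), with the exception of Cyp51 and Dhcr7, and at 8 of the other 13 members (61.5%). At least 2 matches were found in 12 of the 18 enzymes (66.7%) and 1 of the other 13 members (7.69%), against 16.4% of all promoter regions. At least 3 were found in 7 of the enzymes (38.9%) and 1 of the other members (7.69%), against 6.39%. Mvk had 5 matches, Hmgcs1, Fdft1, Nsdhl and Stard4 had 4 each, and Idi1, Msmo1 and Hsd17b7 had 3 each; those of Mvk, Hmgcs1 and Fdft1 are the short runs of capitals in the sequences above. The median distance of a match from the summit was 45.0 bp in the members and 41.0 bp in all promoter regions.

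Promoter height moved with the same letters. Among all promoter regions the share with CCAAT was 26.8% in the lowest 25% by fold enrichment, 35.0% and 41.9% in the bins above it and 56.4% in the highest 25%. Members with CCAAT numbered 3 of 5, 1 of 2, 6 of 9 and 14 of 15 in these bins, in that order. The part of fold enrichment in the CCAAT share of the members was not tested. The annotated promoter windows of RefSeq run from 250 bases before to 50 after a start whatever its accessibility. They held CCAAT at 20 of the 25 members in that set (80.0%), and the remaining members were not found in it by symbol. The share was 71.4% for 28 other genes of lipid metabolism and 41.1% for all 27025 genes of the set. That set differs from the 21853 protein-coding genes used elsewhere.

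**Figure D4:**
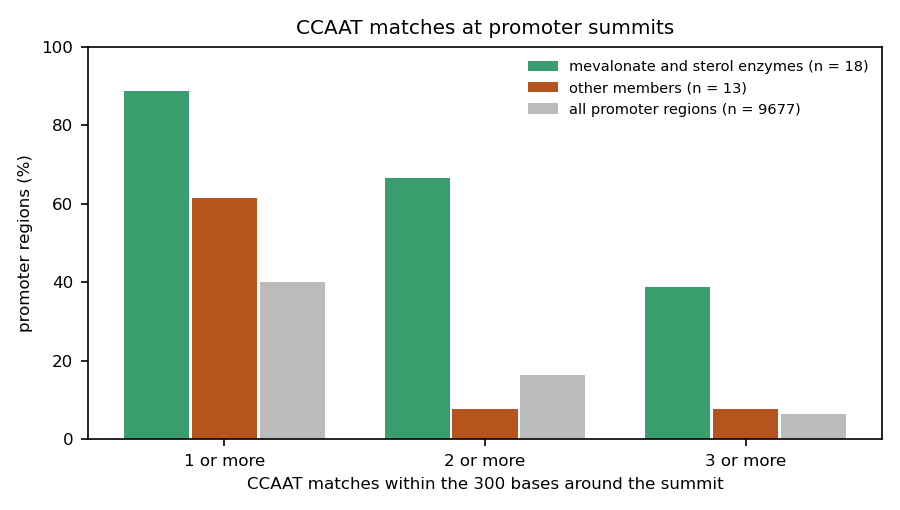
Share of promoter regions (vertical axis, percent) with at least 1, 2 or 3 CCAAT matches in the 300 bases around the summit, for the 18 mevalonate and sterol enzymes, the 13 other members and all 9677 promoter regions. The enzymes stand at 88.9, 66.7 and 38.9%, and all promoter regions at 40.0, 16.4 and 6.39%.

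The SRE letters TCACNCCAC were rare. They were found at the promoter summit of 2 of 31 members (6.45%), against 0.940% of all promoter regions. The members were Hmgcs1 and Fasn. The match of Hmgcs1 reads TCACCCCAC and lies 161 bp upstream of a start and 37 bp from the summit. Both regions also hold CCAAT and a GC box, and all 3 motifs were combined in 0.186% of all promoter regions. With 1 mismatch allowed, a setting added after these values were seen, 14 of 31 members (45.2%) had a match, against 25.7% of all promoter regions. Among distal regions, 4 of 38 had an exact match (10.5%), against 1.39% of those of all genes. These were the Srebf1 region, 2 intronic regions of Elovl6 and a region 90588 bp downstream of a Stard4 start, in an intron of Camk4. A distal region of Soat1 held an exact match outside those 300 bases. A match to these letters is not a binding site, and no factor binding was measured.

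Other motifs were found in both higher and lower shares. The GC box GGGCGG was found at 26 of 31 member promoters (83.9%), against 68.5% of all promoter regions. The E-box CACGTG had 19.4% in members and 10.9% in all promoter regions, the ETS letters CCGGAAG 9.68% and 21.9%, the CRE letters TGACGTCA 6.45% and 4.22%, the AP-1 letters TGANTCA 3.23% and 4.45%, and the Runx letters TGTGGT 16.1% and 12.4%. In the 38 distal regions of members GC boxes stood at 26.3%, E-boxes at 15.8% and CRE letters at 7.89%, against 13.7%, 6.70% and 1.06% of the distal regions of all genes. The CRE share rests on 3 regions. CCAAT stood at 31.6%, Runx letters at 31.6%, AP-1 letters at 15.8% and ETS letters at 5.26% in members, against 28.6%, 32.9%, 16.0% and 4.76% in all genes. None of these motifs contains another, but matches can share bases. In the Elovl6 sequence shown, the SRE match overlaps a match to the CRE letters.

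**Figure D5:**
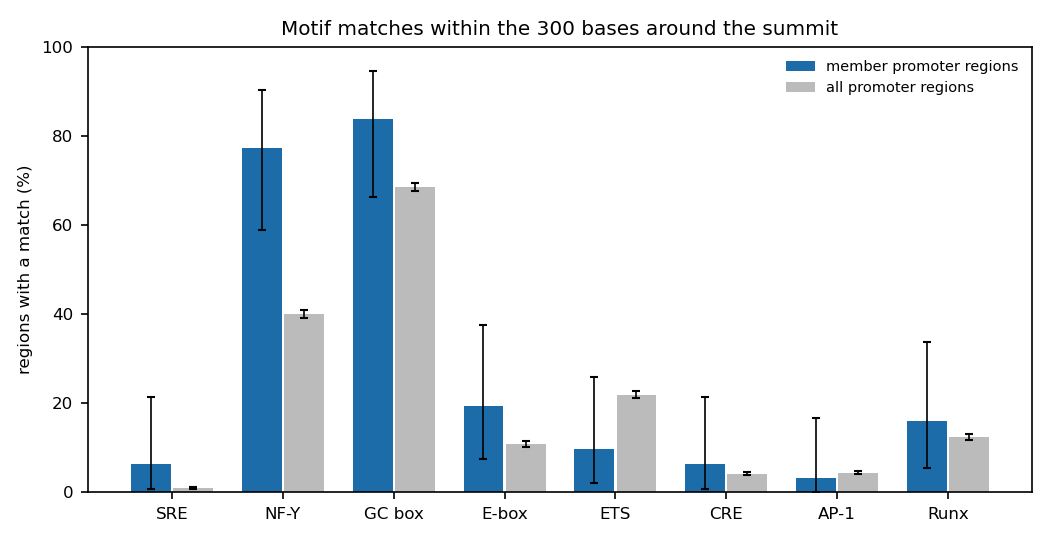
Share of regions (vertical axis, percent) with a match to each of 8 motifs in the 300 bases around the summit, for the 31 member promoter regions (blue) and all 9677 promoter regions (grey), with 95% exact binomial intervals that cover counting error only. CCAAT (NF-Y) stands at 77.4% in members and 40.0% in all promoter regions.

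The letters of LXR response elements, a pair of AGGTCA repeats 4 bases apart with up to 2 mismatches in all, were searched for Abca1, Abcg1 and Srebf1. No region of Srebf1 and neither promoter region of Abca1 held a match; the Abca1 region at −58309 bp held 1 with 2 mismatches, 8 bp from its summit. At Abcg1 matches lay in both promoter regions, but that in the region with 7.06 was outside the 300 bases around the summit. Within those 300 bases 4 of its 6 distal regions held a match, including those with 23.2 and 24.2. Over all members, 7 of 38 distal regions had a match in that window (18.4%), against 3.70% of the distal regions of all genes. Of these 7 regions, 4 belong to Abcg1. In the same window, 2 of the 31 highest promoter regions of members had a match (6.45%), at Acaca and Abcg1, against 1.79% of all promoter regions. The lower promoter region of Dhcr7 also held a match.

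Further genes of lipid metabolism, 32 in a list made from pathway knowledge, were open at 26 promoters (81.2%). All protein-coding genes stood at 49.7%, and those with a CpG-rich start, which 26 of the 32 had, at 78.7%. The median fold enrichment of these promoters was 16.4, the same as over all genes with a promoter region. The highest were Tmem97, a sterol-responsive membrane protein, with 29.0, Tecr, a reductase of fatty acid elongation, with 27.2 and Dhdds, a subunit of the enzyme that makes dolichol precursors, with 26.6. Promoter regions were missing in the thresholded list at Me1, Fads2, Nr1h3, Rxra, Soat2 and Cyp7b1. The pseudoreplicated list held a region at 4 of these, with 9.10 at Nr1h3, which encodes LXR alpha, 6.88 at Rxra, the partner of LXR receptors, 7.08 at Soat2 and 5.56 at Cyp7b1. Neither Me1, malic enzyme, nor Fads2, a fatty acid desaturase, had a promoter region in any of the 3 lists, though 1 distal region was placed at Me1. In the 300 bases around the summit, CCAAT was found at 57.7% of the 26 promoter regions of this list, against 40.0% of all promoter regions. SRE letters were found there at 0 of the 26, against 0.940% of all promoter regions. Some of the 26 regions held SRE letters outside that window.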

How the data were processed

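The text files deposited with the samples, identical for both, name 3 peak lists on mm10 that the authors made from 1 filtered alignment: pseudoreplicated, IDR-thresholded (58138 peaks, the main list) and IDR-ranked. In them the authors give each peak a score (a whole number up to 1000), a fold enrichment as a linear ratio, and a −log10 p-value; the ranked list adds −log10 IDR scores and the −log10 p in each set ranked. Units follow the values and the column order. Neither the aligner, caller, read filters nor the treatment of Tn5 offsets is given in the sources used here, nor is the background of the fold. A local background would make the fold depend on its surroundings. No column is labelled by library (0 columns).

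Peaks that overlapped or touched were merged. Protein-coding transcript starts came from GENCODE M21 on 21 chromosomes and sequence from the GRCm38.p6 genome; annotated promoter windows are RefSeq's. A region reaching the windows of several genes counted for each. Every member is named, and of the further lipid genes those without a promoter region and the 3 with the highest fold. No test was run, with 1 group and 1 biological replicate. Members and lists were chosen with earlier results of these data known. Intervals are Clopper-Pearson. Sequences are shown for a few members only, and 1 that the rule for shown sequences would add is not reported here. The functions were tested on simulated data. Alternatives changed the list, IDR and fold thresholds, windows, starts, assignment and motif settings. Python 3.11.15, SciPy 1.17.1, NumPy 2.4.6 and matplotlib 3.10.9 were used.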

Additional observations from a re-analysis of the deposited data

How the results depend on the processing

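The number of members with a promoter region was 25 to 31 under the 7 alternatives tried. With the lower 50% of regions by fold enrichment left out it was 25: Pmvk, Insig1, Acaca, Fasn, Scd2 and Abcg1 dropped out, and 35.4% of all genes had one. With gene 5′ ends only it was 28, without Pmvk, Insig2 and Elovl6, and 46.7% of all genes had one. Scd1 had none under any of them. The median fold enrichment of member promoters was 19.9 to 21.6 under 8 alternatives, against 15.6 to 18.6 over all genes. The 78 regions at member loci became 131 in the pseudoreplicated list, 43 in the upper 50% by fold, and 150 with summits counted singly. These settings add or remove peaks by construction. In them the mean per gene over all protein-coding genes moved from 1.32 to 2.28, 0.676 and 2.69, in that order. Under the 7 other settings the regions at member loci numbered 66 to 79. The number of promoters with an SRE match was 1 in the upper 50% by fold enrichment, from which the Fasn region is absent, and 14 with 1 mismatch allowed. The number with CCAAT was 22 (71.0%) with 75 bp on either side of the summit and 26 (83.9%) with 300 bp. The shares over all genes with a promoter region were 32.8% and 53.4%. It was 24 (77.4%) in the pseudoreplicated list, against 39.1%, and 20 (80.0% of 25) in the upper 50%, against 45.5%. When at least 2 matches were asked for it was 13 (41.9%), against 17.0%. The CCAAT settings and the mismatch setting were added after the values were seen. No paired analysis was possible because there was 1 group. Leaving out a library was not run, since no list held values by library. With the depth unknown, the lack of a region does not show that a start is closed.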

Other observations

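The highest promoter region of 6 of the 31 members also overlapped the promoter window of another coding gene. Its accessibility therefore cannot be assigned to 1 gene. Such sharing was not particular to the members, since the 10861 genes with a promoter region had only 9677 highest promoter regions. The share of all genes with such an overlap was not counted. The pairs were Mvk with Mmab, which encodes an enzyme of vitamin B12 metabolism, Dhcr7 with Nadsyn1, which encodes NAD synthetase, Nsdhl with the centrin gene Cetn2, Tm7sf2 with Vps51, Acaca with Tada2a and Fdps with Gm43738. Their fold enrichment was 24.1, 25.1, 23.8, 17.2, 11.7 and 28.4 in that order.

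Several distal regions placed by distance lie inside other genes. Both regions placed at Stard4 (fold enrichment 18.8 and 13.9) are in introns of Camk4, which encodes a calcium-dependent kinase active in T cells, the Msmo1 region at −55117 bp from a start (11.5) is in an intron of Klhl2, and the Srebf2 region at −8412 bp (14.4) is in an intron of Ccdc134. Which gene such a region acts on was not measured.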
